A study of Homo sapiens with 6 samples.

Results

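The Kruppel-like factors (KLFs) are zinc finger transcription factors, and 10 of the 18 human KLF genes were described here: KLF1, KLF2, KLF3, KLF6, KLF7, KLF9, KLF10, KLF11, KLF13 and KLF16. Their rows were found by gene symbol among the 34371 rows of a deposited table of estimated counts, each symbol matched exactly 1 row, and all 10 passed the filter on low counts. The cells were ME-1, a human acute myeloid leukaemia line with the CBFB::MYH11 fusion. The SPNS2 group had received a vector for overexpression of SPNS2, an exporter of sphingosine-1-phosphate, and the control group an empty vector. Infected cells were selected in both groups, and polyadenylated RNA was sequenced from 3 libraries of each group. Nothing says that the libraries came from separate transductions or cultures, so each p-value is set against variation among libraries that could be technical. In such bulk RNA, fewer cells that express a gene and less RNA per cell cannot be told apart.

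KLFs bind GC-rich and CACCC-type DNA elements through 3 zinc fingers at their C-terminal end, and differ in the protein partners that their N-terminal parts recruit. KLF1, KLF2, KLF6 and KLF7 belong to a group known mainly as activators, KLF3 recruits the corepressor CtBP, and KLF9, KLF10, KLF11, KLF13 and KLF16 recruit SIN3A. In blood cells KLF1 is known for erythroid differentiation and KLF2 for quiescence and traffic of lymphocytes, while several members respond early to growth factors, hormones or transforming growth factor beta (TGF-beta).

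KLF6, KLF2 and KLF10 passed the test for a difference between the groups. KLF6 and KLF2 fell and KLF10 rose in SPNS2 cells, so 3 of 10 members were called at an adjusted p under 0.05 by the edgeR quasi-likelihood test, and 7 were not called. Among all 13308 features tested, 24.5% were called, so the share of members called was near the background. The call of KLF6 alone held without each single library. At an unadjusted p under 0.05 the members called numbered 3 as well, against 36.2% of all features. Limma voom called 3 members (24.3% of all features), the replicate block 2 (20.5%), the fit with no low-count filter 2 (16.6%) and DESeq2 1 (18.8%). The median log2 fold change was -0.0066 over the 10 members and 0.0026 over all features tested. The levels of the 2 groups did not overlap for 4 members, KLF1, KLF2, KLF6 and KLF10, against 40.1% of all features tested.

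The promoters of both members that fell, KLF2 and KLF6, are shown with those of KLF1 and KLF16, an erythroid member and an abundant one that were not called. Each sequence is the 250 bases before the RefSeq transcription start on the strand of the gene, in build GRCh38.p14, and capitals mark motif matches on either strand. The GC box was searched as GGGCGG. The element of MEF2 type was searched as CTANNNNTAG. The element of GATA type was searched as TGATAA, and the fourth motif was CCAAT. The regions are chr19:16324576-16324825 on the plus strand for KLF2, chr10:3785210-3785459 on the minus strand for KLF6, chr19:12887202-12887451 on the minus strand for KLF1 and chr19:1863580-1863829 on the minus strand for KLF16.
KLF2: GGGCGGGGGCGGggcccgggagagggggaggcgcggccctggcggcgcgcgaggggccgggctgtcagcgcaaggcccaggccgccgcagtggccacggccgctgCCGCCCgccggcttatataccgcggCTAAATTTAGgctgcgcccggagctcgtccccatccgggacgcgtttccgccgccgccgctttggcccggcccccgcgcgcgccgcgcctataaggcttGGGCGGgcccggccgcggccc
KLF6: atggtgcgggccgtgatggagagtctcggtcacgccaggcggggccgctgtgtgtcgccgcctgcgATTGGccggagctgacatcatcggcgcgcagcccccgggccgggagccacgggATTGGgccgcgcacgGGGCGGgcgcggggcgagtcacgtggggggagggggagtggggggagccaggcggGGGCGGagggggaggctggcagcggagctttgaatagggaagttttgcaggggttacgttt
KLF1: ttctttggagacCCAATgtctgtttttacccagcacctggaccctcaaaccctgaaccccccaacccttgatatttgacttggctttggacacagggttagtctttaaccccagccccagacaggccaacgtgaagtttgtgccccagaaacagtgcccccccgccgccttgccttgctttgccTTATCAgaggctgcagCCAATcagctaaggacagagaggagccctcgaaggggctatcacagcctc
KLF16: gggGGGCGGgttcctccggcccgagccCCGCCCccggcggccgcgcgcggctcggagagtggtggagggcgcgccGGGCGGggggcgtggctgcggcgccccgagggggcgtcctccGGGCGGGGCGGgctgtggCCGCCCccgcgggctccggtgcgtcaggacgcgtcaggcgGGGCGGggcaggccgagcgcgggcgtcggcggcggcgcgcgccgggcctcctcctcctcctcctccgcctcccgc

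The KLF2 promoter held 4 GC boxes and 1 MEF2-type match, CTAAATTTAG, which ended 111 bases before the start and overlapped none of the other motifs named here. A match to CTANNNNTAG was present in 2.36% of 35116 upstream windows of 250 bases in the same RefSeq table. A GC box was present in 42.6% of them. The MEF2-type match was not confined to members that fell. KLF11, which was not called, had such a match 18 to 9 bases before its start 2. The KLF6 promoter held 2 GC boxes and 2 CCAAT boxes, with both CCAAT boxes on the opposite strand, and CCAAT was found in 32% of all windows. The KLF1 promoter had no GC box, 1 match to TGATAA between 66 and 61 bases before the start and 2 CCAAT boxes, whereas the KLF16 promoter held 7 GC boxes and none of the other 3 capitalised motifs. TGATAA was present in 6.66% of all windows. The letters CCNCNCCC, a CACCC-type element of the kind KLFs bind, matched 5 times in KLF2, 6 times in KLF6, 8 times in KLF16 and not in KLF1, and overlapped GC boxes in part of these matches. This element was present in 53.4% of all windows. In the table, 8 of the 10 members had an entry, all except KLF3 and KLF10. These matches describe letters in the reference and are no evidence of binding in ME-1 cells.

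Sequencing depth was similar across groups. Library totals ran from 31361562 to 33540256 counts with SPNS2 and from 28605187 to 38489992 counts with the empty vector. The vector form of SPNS2 had a row of its own, in CPM (counts per 1000000 of the TMM-scaled library total). It was at 764 to 789 CPM in SPNS2 libraries and 0 to 0.233 CPM in empty vector libraries. Native SPNS2 was at 49.3 to 52.6 CPM in SPNS2 libraries and 40.9 to 44.7 CPM in empty vector libraries. Of the blood cell markers examined, the myeloid enzyme gene MPO was at 26003 CPM in SPNS2 and 26140 CPM in empty vector libraries, and was not called. Of the 25 cell type markers, 14 were tested, of which 4 rose, 3 fell and 7 were not called. Among all features tested, 11.9% rose and 12.6% fell. The markers were called more often than that, but they are 14 chosen genes, and this difference was not tested. Blood cell markers moved in both directions: the receptor gene KIT rose by 0.55 and the leukocyte gene PTPRC by 0.26 on the log2 scale, while the myeloid receptor gene CD33 fell by 0.71, LYZ by 0.32 and the progenitor marker CD34 by 0.25. Their edgeR adjusted p values ran from 3.68e-08 for KIT to 0.0386 for LYZ. The 14 markers of other cell types summed to 154 to 158 CPM in SPNS2 and 132 to 140 CPM in empty vector libraries, and nearly all of this was EPCAM, which rose by 0.19 on the log2 scale. The T cell gene CD3E also rose, at 0.892 ± 0.0298 CPM with SPNS2 and 0.494 ± 0.104 CPM with the empty vector (SD, n = 3 each). Without EPCAM they summed to 13.1 to 14.8 CPM and 12.8 to 13.1 CPM, and KRT18, KRT19, CDH5, MS4A1 and HBB were listed at 0 in every library. A listed 0 is weak evidence in this table: POLR2A, which every cell transcribes, had 39 to 58 counts in SPNS2 and 35 to 51 counts in empty vector libraries, and 74 rows, none of them a KLF member, were at 0 in some library and at 50 or more counts in another. The part of these marker changes in the KLF results was not tested.

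KLF6 gave the clearest change. This ubiquitous factor, an early response gene in many cell types, was at 43.4, 43.7 and 41.5 CPM in the SPNS2 libraries and at 49.6, 52.9 and 52.2 CPM in the empty vector libraries. All 3 SPNS2 libraries lay below all 3 empty vector libraries, with a gap wider than the spread inside either group. The mean was 42.9 ± 1.16 CPM with SPNS2 and 51.6 ± 1.69 CPM with the empty vector (SD, n = 3 each), a log2 fold change of -0.27 with a 95% interval of -0.35 to -0.18 (SE 0.0372; edgeR adjusted p = 0.00049). On the linear scale this was a change of -16.8%. The row (ENSG00000067082.15) rested on 4177 counts in SPNS2 and 5100 counts in empty vector libraries. The ratio of pooled counts, scaled by library totals, was 0.838, and its Clopper-Pearson 95% interval ran from 0.805 to 0.874. Such intervals of pooled counts hold counting error alone, because pooling leaves out the variation among the libraries of a group. The libraries also had no stated molecular identifiers. Without single libraries the log2 fold change ran from -0.29 to -0.24 and the adjusted p from 0.00066 to 0.0038 by edgeR.

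KLF2, the member tied to quiescence and trafficking of lymphocytes and to the flow response of endothelium, was scarce. It was at 1.54, 1.43 and 1.07 CPM in the SPNS2 libraries, from 50, 45 and 36 counts, and at 1.76, 2.46 and 2.45 CPM in the empty vector libraries, from 68, 70 and 79 counts. The groups did not overlap, but empty vector library 1 lay closer to SPNS2 library 1 than to the other empty vector libraries. The means were 1.35 ± 0.249 CPM with SPNS2 and 2.22 ± 0.399 CPM with the empty vector (SD, n = 3 each). The log2 fold change of -0.72 was the largest in size among the members (95% interval -1.16 to -0.28, SE 0.20; edgeR adjusted p = 0.0235). Pooled counts of 131 in SPNS2 and 217 in empty vector libraries gave a scaled ratio of 0.618, with a counting interval of 0.494 to 0.771. The call was lost without SPNS2 library 2 (log2 fold change -0.76, adjusted p = 0.0523 by edgeR), without SPNS2 library 3 (-0.57, 0.0839), without empty vector library 2 (-0.64, 0.0784) and without empty vector library 3 (-0.64, 0.0790). DESeq2 gave -0.72 with an adjusted p of 0.0556. KLF2 lay below zero in all of these fits.

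The other members of the activator group were not called. KLF1, the erythroid factor that drives beta-globin transcription, was at 1.82, 2.10 and 2.05 CPM with SPNS2 and at 2.65, 2.21 and 2.36 CPM with the empty vector. The 3 SPNS2 libraries were lower than the 3 empty vector libraries without overlap, yet the edgeR adjusted p was 0.2003. Its log2 fold change of -0.28 had a 95% interval of -0.60 to 0.04, that is from -34.1% to 3.12% on the linear scale. KLF7, best known from outgrowth of neurons, was at 4.97, 4.71 and 4.8 CPM with SPNS2 and at 5.27, 4.36 and 4.44 CPM with the empty vector. These groups overlapped, with a log2 fold change of 0.04 and an interval of -0.21 to 0.28.

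**Figure D1:**
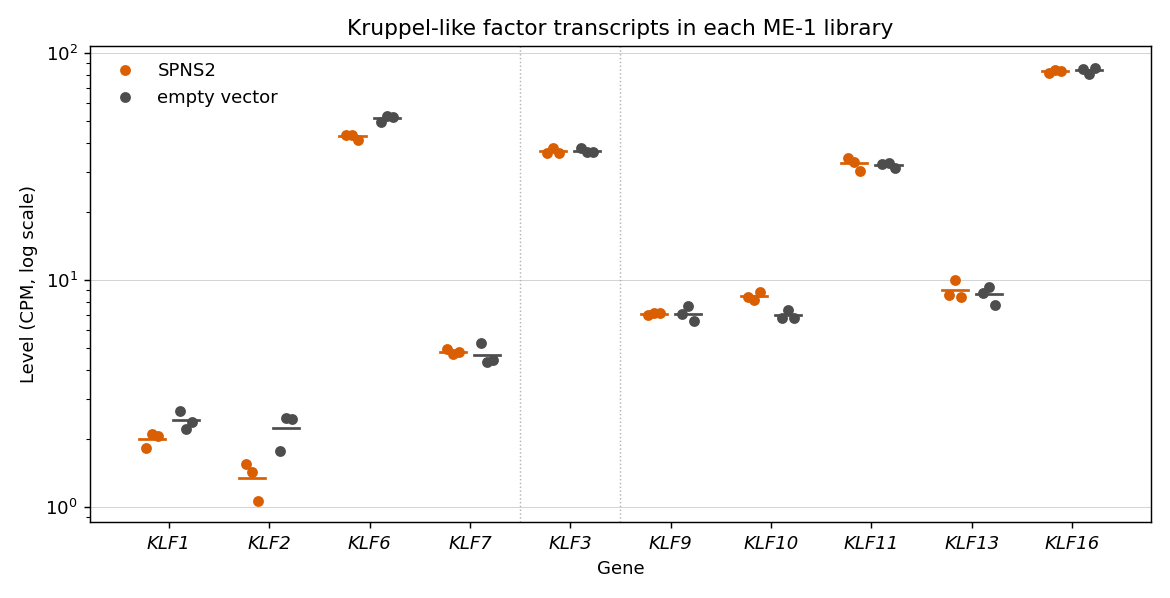
Level of each of the 10 KLF genes in CPM on a log axis, with 1 point per library, SPNS2 left of the empty vector for each gene and a line at each mean of 3; dotted lines separate the activator group, KLF3 and the SIN3A-binding group. KLF6 and KLF2 lie lower and KLF10 higher in SPNS2 libraries without overlap, and KLF1 is also lower without overlap but was not called.

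KLF3, a repressor that works through CtBP and is itself a target of KLF1 in erythroid cells, was not called. Its level was 36.3, 38.1 and 36.1 CPM in SPNS2 libraries and 38.1, 36.6 and 36.6 CPM in empty vector libraries. The log2 fold change was -0.01 with a 95% interval of -0.10 to 0.07, that is from -6.48% to 5.17% on the linear scale. About 2.76% of the 31-base words of KLF3 transcripts in GENCODE 29 also occur in other genes, with 42 of 173 shared words in the pseudogene KLF3P1, so the row can share a few reads.

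Of the 5 members that recruit SIN3A, only KLF10 was called. KLF10, first described as a TGF-beta inducible early gene, was at 8.39, 8.18 and 8.81 CPM with SPNS2 and at 6.82, 7.41 and 6.83 CPM with the empty vector. The SPNS2 libraries were all higher, with means of 8.46 ± 0.319 CPM with SPNS2 and 7.02 ± 0.339 CPM with the empty vector (SD, n = 3 each). The log2 fold change was 0.27 with a 95% interval of 0.09 to 0.45 (SE 0.0819; edgeR adjusted p = 0.0332), a change of 20.7%. Counts pooled over libraries, 826 with SPNS2 and 694 with the empty vector, gave a scaled ratio of 1.22 and a counting interval of 1.10 to 1.35. The call did not hold without any of the 6 libraries in turn: leaving out SPNS2 library 1, 2 or 3 gave edgeR adjusted p values of 0.0836, 0.0580 or 0.122, and leaving out empty vector library 1, 2 or 3 gave 0.101, 0.0591 or 0.104. The log2 fold change stayed between 0.24 and 0.31 in those fits. It was 0.27 with the replicate number as a block (adjusted p = 0.0712), 0.27 with DESeq2 (adjusted p = 0.132) and 0.27 without a filter on low counts (adjusted p = 0.0763 by edgeR).

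KLF11, the other TGF-beta inducible early gene of the family, was at 34.5, 33.0 and 30.3 CPM with SPNS2 and at 32.5, 32.8 and 30.97 CPM with the empty vector. Its groups overlapped fully, with a log2 fold change of 0.02 and an interval of -0.09 to 0.13. KLF16, which represses through GC boxes, was at 81.9, 84.2 and 82.8 CPM with SPNS2 and at 84.5, 80.4 and 86.2 CPM with the empty vector. It had the narrowest interval of the members, -0.09 to 0.06 around a log2 fold change of -0.01. KLF9, a gene induced by glucocorticoids and thyroid hormone, was at 7.003, 7.16 and 7.15 CPM with SPNS2 and at 7.08, 7.69 and 6.58 CPM with the empty vector, and its interval ran from -0.20 to 0.19. KLF13, known as an activator of CCL5 in T cells, was at 8.61, 10.03 and 8.39 CPM with SPNS2 and at 8.79, 9.34 and 7.79 CPM with the empty vector, with an interval of -0.15 to 0.28. The interval of KLF9 still allows a change of up to 14.3% upward, and that of KLF13 is wider.

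**Figure D2:**
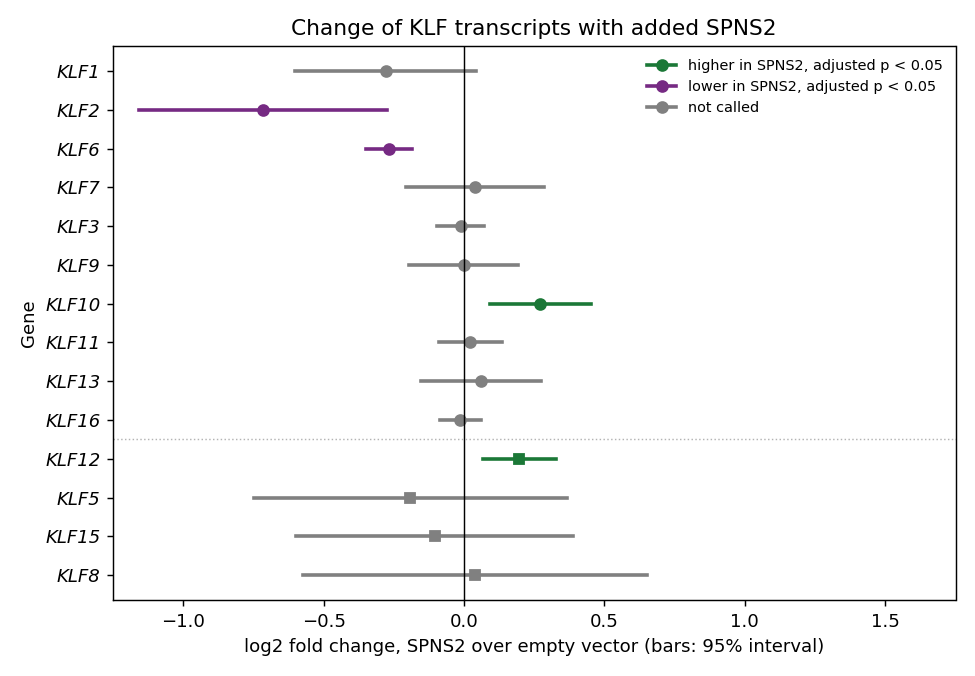
Log2 fold change of SPNS2 over empty vector with its 95% interval for the 10 members (circles) and, below the dotted line, the 4 other KLF genes that were tested (squares). The intervals of KLF2 and KLF6 lie below 0, those of KLF10 and KLF12 above 0, and KLF2 has the widest interval among the members.

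Levels of different genes can be compared only per length, here as CPM per kilobase of the longest GENCODE 29 transcript. On this scale KLF16 stood first, at 28.7 ± 0.406 with SPNS2 and 28.96 ± 1.02 with the empty vector (SD, n = 3 each). KLF6 followed at 9.20 ± 0.248 and 11.1 ± 0.364, then KLF11 at 8.08 ± 0.517 and 7.96 ± 0.245 and KLF3 at 7.19 ± 0.222 and 7.24 ± 0.165. KLF10 was at 2.31 ± 0.0872 and 1.92 ± 0.0925, and the remaining 5 lay between 0.577 and 1.37 with SPNS2 and between 0.560 and 1.49 with the empty vector. Among KLF1, KLF9 and KLF13, neighbours in the order differed by less than the larger SD of the pair in both groups. The order depended on the length used: by the median length of coding transcripts, KLF16 was still first, at 73.2 with SPNS2 and 73.9 with the empty vector, but KLF13 took the second rank, at 15.7 and 15.1: its coding transcripts have a median of 574 bases, against 6825 for the longest.

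The other KLF genes and the related SP factors gave context. KLF12, a CtBP-binding repressor related to KLF3, was at 15.7, 17.4 and 17.02 CPM with SPNS2 and at 14.9, 14.8 and 14.0 CPM with the empty vector. It rose, with a log2 fold change of 0.20 ± 0.0588 (SE; edgeR adjusted p = 0.0313) and groups that did not overlap. The call was lost without SPNS2 library 2 (0.17, adjusted p = 0.119 by edgeR) or 3 (0.18, 0.0860), without empty vector library 3 (0.17, 0.0966), with DESeq2 (0.20, 0.131) and with the replicate block (0.20, 0.0572). KLF5, KLF8 and KLF15 lay between 0.421 and 1.33 CPM in every library and were not called, with log2 fold changes of -0.19, 0.04 and -0.10. KLF4 and KLF18 were listed at 0 in all 6 libraries, KLF14 had 1 count and KLF17 had 33 counts over all libraries. Among SP genes, 5 were tested and 0 were called by edgeR, with 0 at an unadjusted p under 0.05. DESeq2 or limma voom also called 0. Of all features tested by edgeR, 24.5% were called and 36.2% had an unadjusted p under 0.05. With only 5 genes, 0 calls cannot be set apart from these shares. SP1, the founding GC box factor, was at 119 ± 3.99 CPM with SPNS2 and 122 ± 1.85 CPM with the empty vector, and SP3 at 113 ± 1.28 and 109 ± 3.35 CPM (SD, n = 3 each). SP7 had 1 count, SP8 was listed at 0, SP9 had 13 and SP5 had 49 over the 6 libraries, and SP2, SP4 and SP6 had log2 fold changes of 0.07, 0.15 and 0.21.

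**Figure D3:**
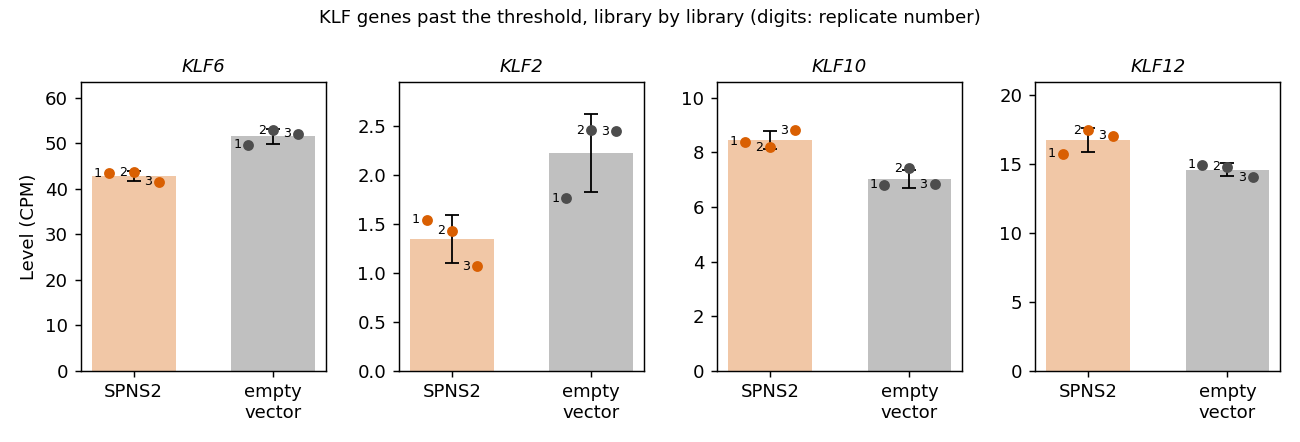
CPM of KLF6, KLF2, KLF10 and KLF12, the KLF genes past the threshold, with SPNS2 left of the empty vector; bars are means of 3 libraries, error bars are SD and digits give replicate numbers. Each pair of groups is separated without overlap, and KLF2, at 1.07 to 2.46 CPM, shows the widest spread relative to its mean.

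Genes through which KLFs act were called near or below the share of all features tested, which was 24.5% for an adjusted p under 0.05 and 36.2% for an unadjusted p under 0.05. Of 15 tested corepressor genes, among them CTBP1, CTBP2, SIN3A and HDAC1, 0 were called by edgeR, 3 had an unadjusted p under 0.05, and 0 were called by DESeq2 or limma voom. The median log2 fold change of this list was -0.02. Without SPNS2 library 3, empty vector library 1 or empty vector library 3, 1 of them was called. Of 8 coactivator genes, 1 rose and 1 fell. CREBBP, the acetyltransferase CBP, rose (log2 fold change 0.15, edgeR adjusted p = 0.0392) and SMARCA4, the remodeller ATPase BRG1 with which KLF1 works, fell (-0.08, edgeR adjusted p = 0.0479). Neither call was firm: the adjusted p of SMARCA4 was 0.0547 to 0.152 when single libraries were left out, and that of CREBBP was 0.0573 or 0.151 without SPNS2 library 1 or 2 and 0.139 or 0.0632 without empty vector library 2 or 3. Among 7 tested genes of KLF turnover and nuclear import, only KPNB1, importin beta, changed, with a log2 fold change of -0.09 (edgeR adjusted p = 0.0150, and 0.0581 without SPNS2 library 3). FBXW7, a ubiquitin ligase subunit that targets KLF2, was not called, at a log2 fold change of 0.01.

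The MEF2 factors and class IIa histone deacetylases through which the kinase ERK5 controls KLF2 and KLF4 were higher in part. Of 9 tested genes of this route, 6 rose, 0 fell and 3 were not called, against 11.9% of all features tested that rose. The list median was 0.12 on the log2 scale. This list and the other KLF gene lists, above and below, were chosen with earlier results of these data known. Their shares beside those of all features are therefore descriptive and were not tested. HDAC5, which binds MEF2 and represses its targets, was at 48.2, 49.9 and 50.2 CPM with SPNS2 and at 39.9, 38.7 and 38.5 CPM with the empty vector. It rose, at a log2 fold change of 0.34 ± 0.0341 (SE; edgeR adjusted p = 5.83e-05). MEF2D rose by 0.18, MEF2C by 0.14 and HDAC7 by 0.12 on the log2 scale. MAPK7, the gene of ERK5 itself, was at 10.03 ± 0.846 CPM with SPNS2 and 10.5 ± 0.737 CPM with the empty vector (SD, n = 3 each) and was not called. HDAC7 lost its call without SPNS2 library 1 or 2 (adjusted p = 0.0756 or 0.0525) and without empty vector library 2 or 3 (0.0595 or 0.0640). In the fits without SPNS2 library 2 or without empty vector library 3, 3 of the genes rose, and with DESeq2 also 3. With limma voom 4 rose.

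Genes known to be controlled by KLF2 did not move one way. Of 9 tested, 2 rose, 1 fell and 6 were not called, against 11.9% of all features tested that rose and 12.6% that fell, and the list median was 0.15 on the log2 scale. THBD, thrombomodulin, which KLF2 induces in endothelium, was at 0.987, 0.573 and 1.01 CPM with SPNS2 and at 1.37, 1.93 and 1.74 CPM with the empty vector. It fell, at a log2 fold change of -0.96 ± 0.243 (SE; edgeR adjusted p = 0.0148), and its adjusted p was 0.0548 without empty vector library 2. IL6R, the interleukin-6 receptor, was at 31.6, 31.9 and 32.8 CPM with SPNS2 and at 19.4, 18.9 and 18.4 CPM with the empty vector, a log2 fold change of 0.76 (edgeR adjusted p = 1.35e-06). S1PR1, a KLF2 target in T cells that binds sphingosine-1-phosphate, was listed at 0 in all 6 libraries.

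Erythroid partners and genes of KLF1 are given next. GATA1, its main partner in red cell precursors, was listed at 0 in every library, as were HBB, HBA1, HBG1, AHSP, ALAS2 and EPB42. Of 10 tested partner genes, 2 rose and 1 fell, against 11.9% of all features tested that rose and 12.6% that fell. This count of calls was near the background. At an edgeR unadjusted p under 0.05 there were 6 of 10, against 36.2% of all features tested. The groups did not overlap for 7 of 10, against 40.1%. These higher shares were not tested. TAL1, a partner factor of erythroid and stem cells, was at 1.91, 1.97 and 2.08 CPM with SPNS2 and at 4.05, 5.34 and 4.62 CPM with the empty vector, a log2 fold change of -1.23 ± 0.138 (SE; edgeR adjusted p = 0.00013). NFE2, a subunit of an erythroid and megakaryocytic factor, rose by 0.73 and LDB1, the bridging cofactor of the TAL1 complex, by 0.18. Of 13 tested erythroid genes, 4 rose and 1 fell, beside 11.9% and 12.6% of all features tested, with a list median of 0.05. TFR2, a transferrin receptor of erythroid cells, fell to 9.45 ± 0.135 CPM with SPNS2 against 14.9 ± 0.920 CPM with the empty vector (SD, n = 3 each). GYPC, glycophorin C, rose by 0.33, ERMAP by 0.34 and ICAM4 by 0.24 on the log2 scale, and the fourth riser was CD44 at 0.10.

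Genes around KLF10 and KLF11 in the TGF-beta pathway were higher in part. Of 14 tested, 6 rose, 2 fell and 6 were not called, against 11.9% of all features tested that rose and 12.6% that fell, and the list median was 0.09 on the log2 scale. SKIL, a SMAD repressor that TGF-beta itself induces, was at 13.9, 12.96 and 12.5 CPM with SPNS2 and at 8.22, 8.46 and 7.82 CPM with the empty vector. It rose, at a log2 fold change of 0.68 ± 0.0734 (SE; edgeR adjusted p = 9.14e-05). The related SKI rose by 0.23, and the receptors TGFBR2 and TGFBR1 by 0.27 and 0.19. SMAD7, the classical feedback target of the pathway, was at 2.59 ± 0.0888 CPM with SPNS2 and 2.55 ± 0.520 CPM with the empty vector and was not called, and the ligand gene TGFB1 fell, as did the coreceptor gene ENG. Neither fall was called with the replicate block, without SPNS2 library 3 or without empty vector library 3, and each of the other fits that left out 1 library called 1 of the 2.

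Of 11 tested genes described as controlled by KLF6, 4 rose and 2 fell, against 11.9% of all features tested that rose and 12.6% that fell, and the list median was 0.19 on the log2 scale. Of the tested genes, 4 also stand in the TGF-beta list, among them both that fell, TGFB1 and ENG, with the lost calls given there. HIF1A, the oxygen-regulated factor, rose by 0.27 and PLAU, urokinase, by 0.25 on the log2 scale. CDKN1A, the cell cycle inhibitor p21 and best known KLF6 target, was at 0.821 ± 0.107 CPM with SPNS2 and 0.684 ± 0.329 CPM with the empty vector (SD, n = 3 each) and was not called. Of 11 tested genes of the glucocorticoid and thyroid hormone receptor routes around KLF9, 0 rose, 4 fell and 7 were not called. Of all features tested, 11.9% rose and 12.6% fell, and the list median was -0.11 on the log2 scale. DDIT4, an mTOR inhibitor induced by glucocorticoids, fell by 0.49, FKBP5, a cochaperone of the glucocorticoid receptor, by 0.22, the thyroid hormone receptor THRA by 0.17 and FKBP4 by 0.11 on the log2 scale. KLF9 and NR3C1, the glucocorticoid receptor, were both not called, with log2 fold changes of -0.0011 and -0.01.

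**Figure D4:**
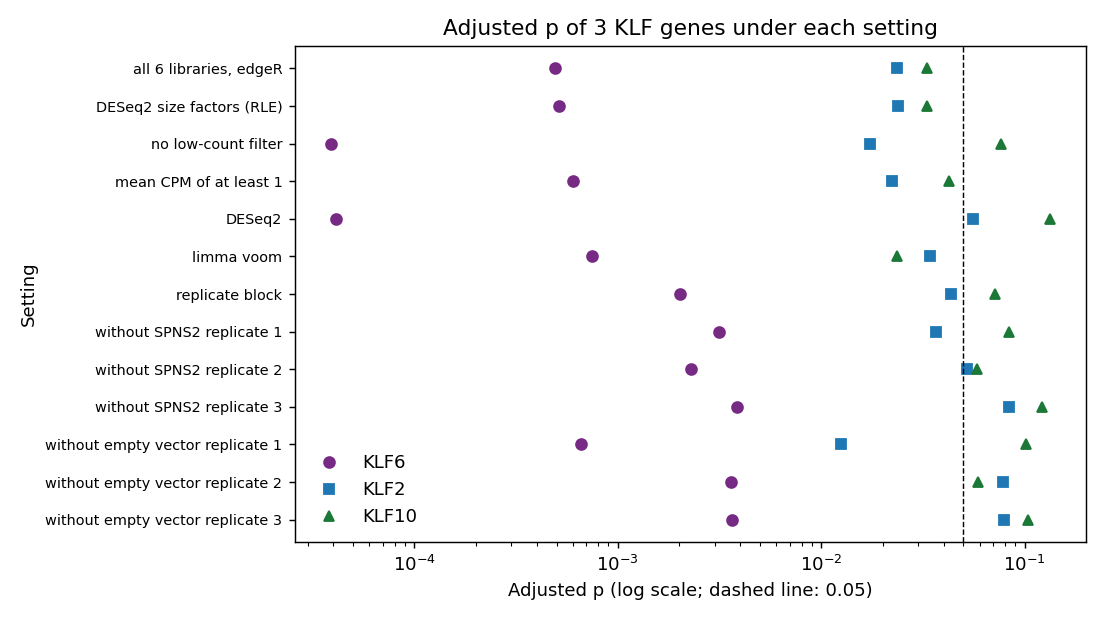
Adjusted p on a log axis for KLF6 (circles), KLF2 (squares) and KLF10 (triangles) in the fit of all 6 libraries and under 12 alternatives, with a dashed line at 0.05. KLF6 lies left of the line in every row, while KLF2 and KLF10 fall on both sides of it.

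**Figure D5:**
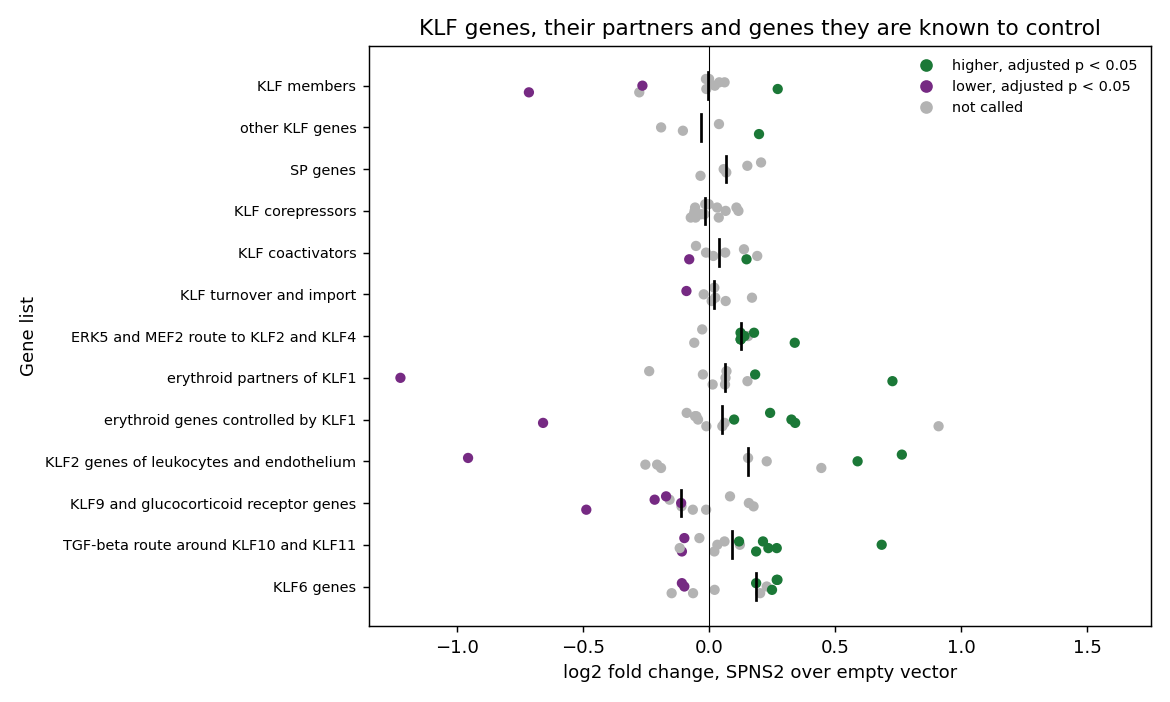
Log2 fold change of SPNS2 over empty vector for each tested gene of the KLF lists, with 1 point per gene, a black bar at the list median and colours for genes past an adjusted p of 0.05. The ERK5 and MEF2 list has 6 of 9 genes higher in the fit of all 6 libraries, beside 11.9% of all features tested. Under the 12 alternatives 3 to 6 of its genes were called. The lists were chosen with earlier results of these data known, so these shares are descriptive. In this fit of all 6 libraries the corepressor and SP lists hold no called gene, beside 24.5% of all features called.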

How the data were processed

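RNA of 6 ME-1 samples was extracted with a QIAGEN kit and libraries made with a TruSeq Stranded mRNA kit, per the labels' protocols. The authors deposited estimated counts per gene as whole numbers, and the submitters' processing notes name Salmon; version, genome build and annotation were not stated in these sources. Samples were grouped by their titles, 3 per group. Replicates differed beyond sampling noise (chi-square per degree of freedom 2.89 to 5.85).

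Counts were filtered with filterByExpr (minimum count 10, minimum total 15), scaled by TMM and tested with the edgeR 4.0.16 quasi-likelihood test in R 4.3.3, group as the only term, with Benjamini-Hochberg adjustment over all 13308 features and a call at an adjusted p under 0.05. SEs were derived from the log2 fold change and its F statistic, and levels are CPM from TMM-scaled totals. Alternatives used DESeq2 1.42.0 and limma 3.58.1 (voom), other filters and scaling, a replicate block and single libraries left out. The pipeline was tested on simulated counts. Symbols matched 34226 of 34370 Ensembl IDs. The members and the 12 further lists were chosen with earlier results of these data known; all KLF and SP genes were named, and from other lists up to 4 called genes with the smallest p. One gene that this rule names is not reported here. CD44, CTBP1, CTBP2, SIN3A, HDAC1, FBXW7, MAPK7, S1PR1, GATA1, SMAD7, TGFB1, CDKN1A, ENG, POLR2A, NR3C1, native SPNS2, MPO, LYZ, EPCAM, CD3E and the genes listed at 0 were added after their values were seen. Of the 26 erythroid genes, 1 was not analysed here.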

Additional observations from a re-analysis of the deposited data

How the results depend on the processing

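KLF6 stayed lower and called under all 12 alternatives, with log2 fold changes of -0.29 to -0.24. KLF2 was called under 7 and KLF10 under 3 of 12, always in the same direction. DESeq2 called 1 KLF member, 0 other KLF genes, 1 coactivator and 3 genes of the ERK5 and MEF2 list. Without a low-count filter 2 turnover and import genes were called, both lower. That fit also took in SMURF1, with 98 counts in empty vector library 1 and 0 in the others. The call beside KPNB1 may therefore rest on 1 library. With single libraries left out, 2246 to 2738 features, 1 to 2 KLF members, 0 to 1 other KLF genes, 0 to 1 corepressors, 0 to 1 coactivators, 0 to 2 turnover genes and 3 to 5 genes of the ERK5 and MEF2 list were called; the cause was not tested beyond the smaller number of samples in these fits.

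The deviations of same-numbered libraries correlated at 0.031, 0.038 and -0.019, and those of differently numbered libraries at -0.064 to 0.037. Equal replicate numbers thus showed no sign of pairing. Every tested gene had the same weight here, so counting noise of scarce genes could hide a pairing. With the replicate block, 2723 features, 2 KLF members, 0 other KLF genes and 0 coactivators were called.

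Apart from KLF1, the members that were not called changed sign around 0. KLF9 was at 0.00026 with a mean CPM of at least 1, 0.0050 with limma voom and 0.00033 with the replicate block. Without single libraries the log2 fold change ran from -0.037 to 0.0079 for KLF3, from -0.0096 to 0.13 for KLF7, from -0.054 to 0.056 for KLF9, from -0.020 to 0.071 for KLF11, from -0.023 to 0.12 for KLF13, from -0.041 to 0.0067 for KLF16, from -0.358 to 0.00798 for KLF5, from -0.152 to 0.15 for KLF8, from -0.232 to 0.0259 for KLF15 and from -0.0763 to 0.504 for SP6. Depth limits KLF1 and KLF2 most, with 435 and 348 counts over 6 libraries.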

Other observations

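SMURF1, a ubiquitin ligase gene of the turnover list, had 98 counts in empty vector library 1 and was listed at 0 in each of the other 5 libraries, and it did not pass the filter on low counts. Transcript sequences of the KLF members are largely their own in GENCODE 29: KLF6, KLF10 and KLF11 shared 0 words of 31 bases with any other gene, KLF2 shared 0.0992% and KLF7 shared 0.898%, of which most matched the pseudogene KLF7P1.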
